A study of Mus musculus with 6 samples.

Results

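The histamine receptor genes Hrh1, Hrh2, Hrh3 and Hrh4 and the muscarinic acetylcholine receptor genes Chrm1, Chrm2, Chrm3, Chrm4 and Chrm5 encode receptors that antihistamine and anticholinergic drugs bind. These 9 genes, of 21911 protein-coding genes in the GENCODE vM21 annotation, were chosen by name. A gene was called marked in a list when an H3K4me3 peak lay within 1 kb of the start of any of its annotated transcripts, and 10 of the 227418 peaks of the study met that rule. Hrh1 was marked in all 6 lists, Chrm2 in 2, Chrm3 in 1 and the other 6 genes in none.

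Histamine and muscarinic receptors pass signals across the cell membrane through heterotrimeric G proteins. The Hrh1 product and the products of Chrm1, Chrm3 and Chrm5 act through Gq and phospholipase C beta, the Hrh2 product acts through Gs and raises cyclic AMP, and the products of Hrh3, Hrh4, Chrm2 and Chrm4 act through Gi and Go and lower it. In the striatum, acetylcholine comes mostly from local interneurons, and the Chrm1 and Chrm4 products are the main muscarinic receptors of the projection neurons. H3K4me3, trimethylation of lysine 4 of histone H3, marks the starts of active or poised genes. It measures neither RNA nor receptor protein.

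The peaks came from ChIP-Seq on STHdh cells, immortalised mouse striatal progenitor cells used as a cell model of Huntington's disease. Q7SST was the wild-type STHdhQ7 line (labelled STHdh7), and Q111SST was the line labelled mutant (STHdhQ111), whose huntingtin carries an expanded polyglutamine tract. Both received vehicle. Mutant cells that received diacylglycerol kinase inhibitor II (DKI), meclizine, loxapine or cyproheptadine at 10 uM gave the other 4 lists. All 6 cultures shared the C57BL/6 strain label, growth at 33 °C and 24 hours in medium without serum. Each genotype was 1 cell line, so genotype and line cannot be told apart. Cyproheptadine and meclizine are antagonists of the Hrh1 product, cyproheptadine and loxapine also bind serotonin receptors, and loxapine is an antipsychotic that blocks dopamine receptors. The comparisons below ask whether the genes for these receptors carried the mark, and whether the mark there differed between the mutant vehicle list and the other lists. There was 1 list per condition. No test between conditions was possible, and every difference below is a description without a replicate check.

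The lists held between 30758 peaks (DKI) and 45564 peaks (loxapine), and the lowest score was 10 in each. The scale of the score was not stated and the read depth behind each list is unknown, so a peak is described by its strength, the percent of peaks in its own list with a lower score. The labelled cell type was compared with marker genes. Of 8 neural progenitor markers, Vim, Dlx1 and Dlx2 were marked in all 6 lists. Of 6 striatal projection neuron markers, 4 were marked in Q7SST (Ppp1r1b, Penk, Tac1 and Adora2a), 2 in Q111SST and in meclizine (Ppp1r1b and Penk) and 1 in each other list, while the dopamine receptor genes Drd1 and Drd2 were unmarked in all 6. All 4 microglia and blood markers and all 3 endothelial markers were also unmarked in all 6. Of 4 astrocyte and oligodendrocyte markers, Gfap was marked in the 5 mutant-line lists (54.3% in Q111SST) and unmarked in Q7SST, Mbp was marked in meclizine alone, and Aqp4 and Olig2 in none. All 3 mesenchymal markers (Col1a1, Twist1 and Prrx1) were marked in all 6, and the part of any of these markers in the results was not tested.

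Hrh1 (ENSMUSG00000053004.9) spans chr6:114397936-114483296 on the plus strand of GRCm38 and has 5 annotated starts. Its mark did not sit at the first start in most lists. The first 2 starts lie 150 bp apart, the next 2 lie 5730 and 5889 bp downstream inside the gene, and the last lies 60583 bp downstream. The sequences before the first start and before the first of the internal starts are given because these starts differed in how many lists had a peak within 1 kb. Both come from the RefSeq promoter table on GRCm38.p6, plus strand, 5′ to 3′, with CG dinucleotides in capitals. The first covers chr6:114397686-114397935 and the second chr6:114403416-114403665, in each case the 250 bases before the start.
Hrh1 first start: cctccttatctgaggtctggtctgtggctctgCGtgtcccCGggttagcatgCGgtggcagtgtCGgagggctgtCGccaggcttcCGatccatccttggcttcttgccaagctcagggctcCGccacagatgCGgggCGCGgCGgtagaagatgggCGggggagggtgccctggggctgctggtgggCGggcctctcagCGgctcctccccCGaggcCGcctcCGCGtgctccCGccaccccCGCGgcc
Hrh1 internal start: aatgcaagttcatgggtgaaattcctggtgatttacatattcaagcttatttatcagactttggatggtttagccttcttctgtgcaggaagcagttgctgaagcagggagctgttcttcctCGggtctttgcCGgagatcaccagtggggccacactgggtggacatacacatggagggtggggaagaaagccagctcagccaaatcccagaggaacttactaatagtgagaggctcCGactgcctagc
The first stretch held 21 CG dinucleotides and the second held 3.

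Peaks at the internal starts were found in all 6 lists. The Q7SST peak covered chr6:114403811-114404890 with a score of 79 and a strength of 67.0%. The Q111SST peak covered chr6:114403463-114404687 with a score of 116 and a strength of 83.9%. Q111SST was thus the stronger of the vehicle lists. Among the treated lists, strength was highest with cyproheptadine at 93.3% (score 124) and DKI at 91.5% (score 127), and stood at 87.1% for loxapine and 81.1% for meclizine (both score 125). The Q7SST value was the lowest of the 6, and all 5 mutant-line values lay above 80%. The 95% Wilson intervals, which cover counting error only, were 66.5 to 67.5% in Q7SST and 83.5 to 84.2% in Q111SST.

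**Figure D1:**
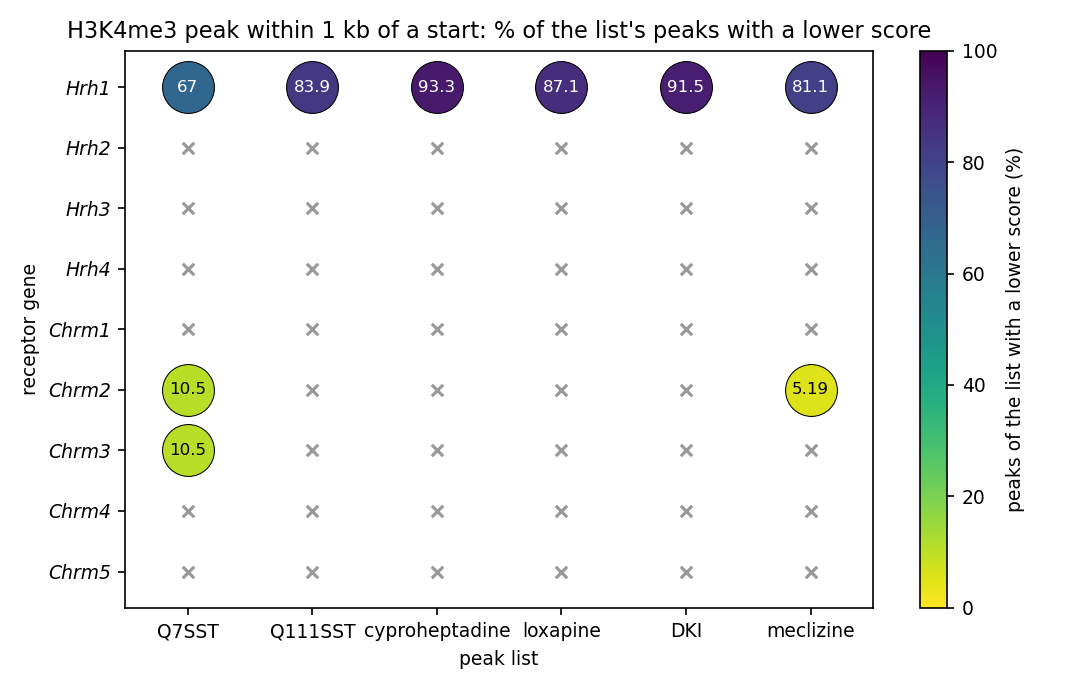
Strength of the promoter peak of each receptor gene (rows) in each peak list (columns), as the percent of that list's peaks with a lower score. Circles give marked genes with the value printed, and crosses give genes with no peak within 1 kb of a start. Hrh1 runs from 67.0% in Q7SST to 93.3% with cyproheptadine, while the Chrm2 and Chrm3 values do not exceed 10.5%.

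A gene marked in both lists was called shifted when its strength differed from that in Q111SST by 10 percentage points or more. Hrh1 was called shifted in Q7SST, by -16.85 points, against a median of -1.04 over all genes marked in both lists. That call was made for 22.1% of such genes. With cyproheptadine the difference was 9.41 points (median -3.80), with DKI 7.63 (median -6.68), with loxapine 3.25 (median -0.36) and with meclizine -2.77 (median -1.54), none of which reached the limit. Over all genes the share called shifted was largest in DKI (42.8%), then cyproheptadine (29.7%), loxapine (16.8%) and meclizine (14.3%). The 4 treated lists and Q7SST were all set against the same Q111SST list.

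Ranking Hrh1 only among genes marked in the same list gave a wider range. Its score was above that of 25.7% of marked genes in Q7SST and 53.0% in Q111SST. It was above 82.9% of them in cyproheptadine, 81.5% in DKI, 60.6% in loxapine and 51.6% in meclizine. Hrh1 was therefore below the middle of marked genes in Q7SST, near it in Q111SST and meclizine, and well above it in cyproheptadine and DKI, the 2 shortest lists. The median score of marked genes was 84.0 in cyproheptadine and 85.0 in DKI, against 110 to 122 in the other lists. The Hrh1 score itself ran only from 116 to 127 over the mutant-line lists. Ranked among promoters marked in all 6 lists, Hrh1 stood at 48.9% in Q111SST, 82.3% with cyproheptadine and 80.8% with DKI, so that both of those differences passed 10 points on this scale. The call in Q7SST held on it as well, at 18.4%. On this scale such calls were common, and covered 41.6% of genes in Q7SST, 43.2% in cyproheptadine and 47.0% in DKI.

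The Hrh1 peaks were narrower than the strongest peak of most marked genes. The widest was 1225 bp, in Q111SST, followed by 1092 bp in meclizine and 1080 bp in Q7SST. The others were 814 bp in loxapine, 728 bp in DKI and 562 bp in cyproheptadine. Median width over marked genes ran from 1461 to 1795 bp in the 6 lists, and between 6.72% (cyproheptadine) and 19.1% (Q111SST) of marked genes had a narrower strongest peak. Peak edges differed on both sides. The Q111SST peak began upstream of both internal starts, the Q7SST and meclizine peaks covered the second of them, and the cyproheptadine, loxapine and DKI peaks began 54, 56 and 107 bp beyond it. They overlapped an exon with untranslated sequence and the intron beside it, except the DKI peak, which lay in intron alone.

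The first start of Hrh1 carried a peak in Q111SST alone. It covered chr6:114397605-114398353, was 749 bp wide and had a score of 11, with only 0.114% of the Q111SST peaks scored lower. The other 5 lists had no peak within 1 kb of either of the first 2 starts. Some other genes also had a mark at a downstream start without one at the first. Among marked genes whose starts lie at least 5 kb apart, 8.54% in Q7SST and 8.73 to 8.94% in the mutant-line lists had that pattern. The last Hrh1 start had no peak within 1 kb in any list.

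**Figure D2:**
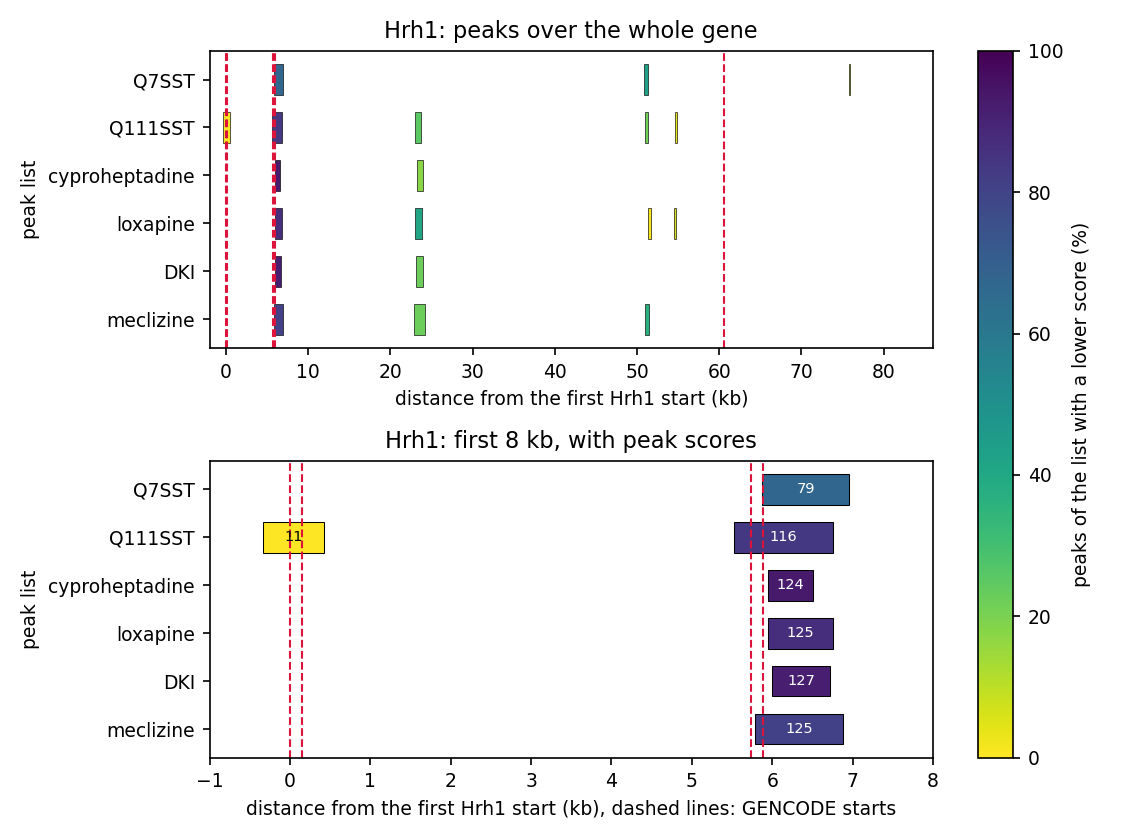
Peaks over Hrh1 in the 6 lists, as distance in kb from the first annotated start, for the whole gene (top) and the first 8 kb with peak scores (bottom). Bars are peaks coloured by strength and dashed lines are GENCODE starts. Peaks at the internal starts appear in all 6 lists, the peak at the first start only in Q111SST, and the intronic peak near 23.6 kb in the 5 mutant-line lists.

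Hrh1 also held intronic peaks away from its starts. A region centred 23.6 kb into the gene, chr6:114420850-114422133, had a peak in all 5 mutant-line lists and none in Q7SST. Its score was 37 in loxapine, 28 in meclizine, 24 in both Q111SST and DKI and 18 in cyproheptadine, with strengths between 17.3 and 41.2%. It lay 17025 bp from the nearest Hrh1 start. A region at 51.3 kb had peaks in Q7SST (score 44), Q111SST (22), loxapine (11) and meclizine (39). The remaining regions were weak, with scores of 13 in Q111SST and 14 in loxapine at 54.7 kb, and a score of 20 in Q7SST at 75.8 kb. The cyproheptadine and DKI lists, the shortest, lacked all 3 of these last regions.

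Hrh2, Hrh3 and Hrh4 had no peak within 1 kb of a start in any list. Hrh2 (ENSMUSG00000034987.4, chr13:54192129-54236180, plus strand), the receptor gene best known for gastric acid secretion, had its nearest peaks 17.7 to 35.1 kb from a start. In Q111SST and loxapine that peak was intronic, at chr13:54231805-54232075 with a score of 29 and at chr13:54231734-54232037 with a score of 25. The other 4 lists had no peak in the gene or within 5 kb of it.

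Hrh3 (ENSMUSG00000039059.11, chr2:180099465-180104488, minus strand) encodes a presynaptic receptor that restrains histamine release. Its nearest peaks were 10.4 to 14.2 kb away, nearest to Osbpl2, an oxysterol-binding protein gene. The stretch before its start is given because it was the richest in CG of the receptor promoters and carried no mark. It covers chr2:180104489-180104657 on the minus strand (RefSeq table, GRCm38.p6), with CG in capitals.
Hrh3: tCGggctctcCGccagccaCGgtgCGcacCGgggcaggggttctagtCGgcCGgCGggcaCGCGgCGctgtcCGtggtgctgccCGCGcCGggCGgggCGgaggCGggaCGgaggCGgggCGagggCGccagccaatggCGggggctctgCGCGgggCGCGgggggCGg
The RefSeq promoter window, 250 bases before to 50 after the start, had a GC content of 79.0% and a ratio of observed to expected CG of 1.02, above 93.4% of all promoters. Of 1333 promoters with a ratio at least as high, 89.8% had a peak within 1 kb in all 6 lists and 5.33% in none, the group that holds Hrh3.

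By the 1 kb rule, the window at the Hrh1 internal start stood the other way round. It had a peak within 1 kb in all 6 lists, a ratio of 0.266 and a GC content of 50.7%, and 27.5% of all promoters were lower. Only the Q111SST peak overlapped the window, and the peaks of the other lists began beyond it. The CG content under the peaks was not measured. Of 5537 promoters with a ratio no higher than that of the window, 7.19% had a peak within 1 kb in all 6 lists and 85.1% in none. The window at the first start had a ratio of 0.728 and a GC content of 71.7%. Over 20150 promoters of 16522 protein-coding genes the median ratio was 0.588. Taking 1 promoter per gene, it was 0.807 for genes marked in all 6 lists and 0.200 for genes marked in none. RefSeq promoters were found for 7 of the 9 receptor genes.

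Chrm2 (ENSMUSG00000045613.9, chr6:36388084-36528414, plus strand) encodes the receptor by which acetylcholine slows the heart, also an autoreceptor on cholinergic neurons. It was marked in Q7SST and meclizine. The Q7SST peak, chr6:36387934-36388579, covered the start and had a score of 21 and a strength of 10.5%. The meclizine peak, chr6:36388261-36388535, was 275 bp wide, had a score of 17 and a strength of 5.19%, and began 66 bp beyond a Chrm2 start. Both were thus among the weakest peaks of their lists. A long noncoding RNA, 9330158H04Rik, starts within both peaks, and its part in the mark was not tested. The nearest peak elsewhere was 192856 bp away in Q111SST, 307370 bp with cyproheptadine and 307784 bp with DKI. Loxapine had an intronic peak 76.1 kb into the gene with a score of 11.

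Chrm3 (ENSMUSG00000046159.16, chr13:9875486-10360847, minus strand) encodes the receptor of smooth muscle and gland secretion. It was marked in Q7SST alone, by a peak at chr13:10359927-10360955 that covered 3 of its 4 starts, with a score of 21, a strength of 10.5% and a width of 1029 bp. A separate intronic peak lay 3509 bp from the most downstream start in Q7SST (score 37) and 3513 bp from it in DKI (score 63). The Q111SST, cyproheptadine, loxapine and meclizine lists had their nearest peaks 102602, 44406, 32070 and 44395 bp from a start. The promoter stretches of Chrm2 and Chrm3 are given as those whose mark differed between lists. They cover chr6:36387834-36388083 on the plus strand and chr13:10360848-10361053 on the minus strand (RefSeq table, GRCm38.p6), with CG in capitals.
Chrm2: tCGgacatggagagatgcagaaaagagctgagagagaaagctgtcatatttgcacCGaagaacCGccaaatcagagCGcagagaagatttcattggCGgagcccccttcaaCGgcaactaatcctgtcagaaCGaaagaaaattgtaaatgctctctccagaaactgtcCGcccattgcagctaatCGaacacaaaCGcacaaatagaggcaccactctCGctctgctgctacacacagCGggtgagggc
Chrm3: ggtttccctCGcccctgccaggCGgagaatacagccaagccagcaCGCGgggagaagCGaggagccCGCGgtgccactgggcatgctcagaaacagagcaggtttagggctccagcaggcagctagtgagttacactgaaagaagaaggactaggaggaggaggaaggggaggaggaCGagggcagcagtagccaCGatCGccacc
The ratio of observed to expected CG was 0.769 in the Chrm2 window and 0.458 in the Chrm3 window, on either side of the median of all promoters.

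**Figure D3:**
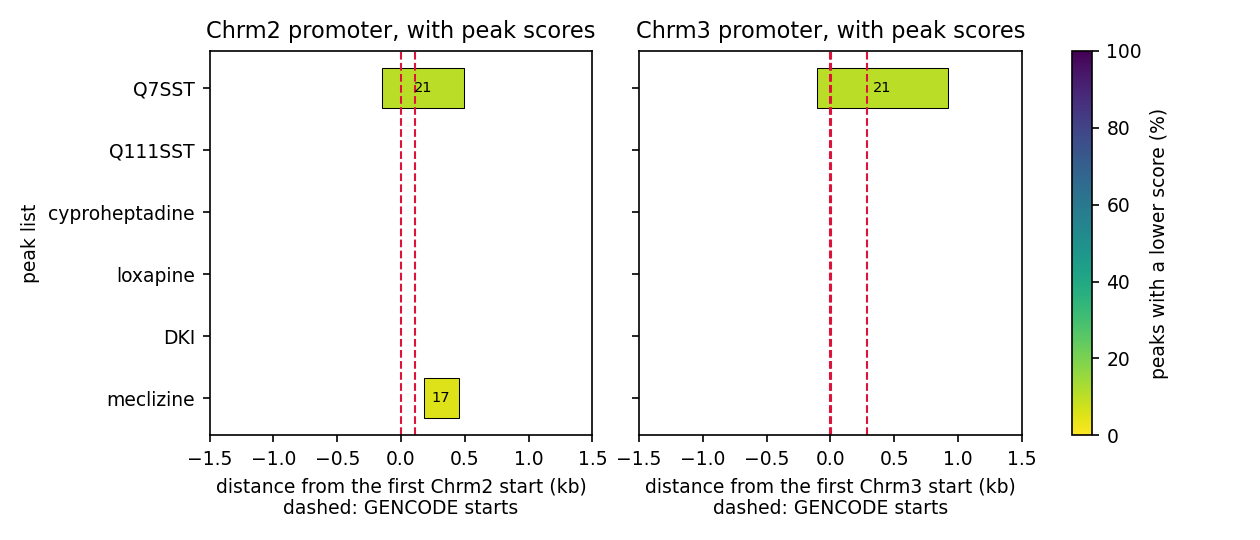
Peaks within 1.5 kb of the first start of Chrm2 (left) and Chrm3 (right) in the 6 lists, as distance in kb along the gene's own strand. Bars are peaks with their scores, coloured by strength, and dashed lines are GENCODE starts. Q7SST has a peak of score 21 over both genes, meclizine a peak of score 17 at Chrm2, and the other 4 lists none.

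Gained means marked in a list and unmarked in Q111SST, and lost the reverse. Of the 8 receptor genes unmarked in Q111SST, Chrm2 and Chrm3 were gained in Q7SST, where 8.64% of all genes unmarked in Q111SST were gained. Chrm2 was gained with meclizine, against 2.46% of all genes. None of the 8 was gained with cyproheptadine (0.735% of all genes), loxapine (2.43%) or DKI (0.647%). Hrh1, the only receptor gene marked in Q111SST, was lost in no list by the 1 kb rule. Of all genes marked in Q111SST, 5.70% were lost with cyproheptadine, 4.94% with DKI, 3.56% in Q7SST, 2.12% with loxapine and 1.37% with meclizine. Counting only peaks that covered a start, Hrh1 was lost with cyproheptadine, loxapine and DKI, as were 12.6, 7.62 and 9.74% of all genes. The gains rested on weak peaks. With each list held to its 30758 highest-scoring peaks, neither Chrm2 nor Chrm3 was marked in any list.

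Chrm4 (ENSMUSG00000040495.4, chr2:91927249-91928688, plus strand) was unmarked by the rule, and the call turned on where its start was placed. GENCODE vM21 gives it 1 start, at its coding exon, whereas RefSeq gives it starts 5060 and 4882 bp upstream. The nearest peaks lay 3006 to 3078 bp from the GENCODE start in the 6 lists, against 107 bp for the farthest Hrh1 peak that was counted. The stretch before the upstream RefSeq start, chr2:91921939-91922188 on the plus strand (GRCm38.p6), is given because peaks overlapped it, with CG in capitals.
Chrm4: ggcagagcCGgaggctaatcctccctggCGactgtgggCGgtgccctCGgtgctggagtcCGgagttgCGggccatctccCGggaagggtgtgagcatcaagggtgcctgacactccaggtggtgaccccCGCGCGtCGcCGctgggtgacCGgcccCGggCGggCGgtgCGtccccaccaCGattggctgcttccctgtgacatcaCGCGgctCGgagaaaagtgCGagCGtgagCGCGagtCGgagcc
It held 26 CG dinucleotides. At or beside this stretch Q7SST had a peak of score 77 (strength 66.1%), Q111SST of 37 (43.5%), loxapine of 20 (16.8%) and meclizine of 24 (16.3%). The cyproheptadine and DKI lists had none there. The Q7SST and meclizine peaks covered the RefSeq start.

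A region between the RefSeq and GENCODE starts of Chrm4, chr2:91922954-91924243, had a peak in all 6 lists. Its score was 105 in loxapine, 80 in meclizine, 64 in Q111SST, 59 in Q7SST, 55 in cyproheptadine and 30 in DKI. Strength there ran from 31.6% with DKI to 81.3% with loxapine, and the 2 vehicle lists stood at 56.4% (Q7SST) and 63.9% (Q111SST). With RefSeq starts, Chrm4 counted as marked in Q7SST, Q111SST, loxapine and meclizine, and between 55.0 and 59.4% of all genes were marked. A pseudogene, Gm10805, starts 714 bp from the upstream region, so the gene that the mark belongs to cannot be told apart from position alone.

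**Figure D4:**
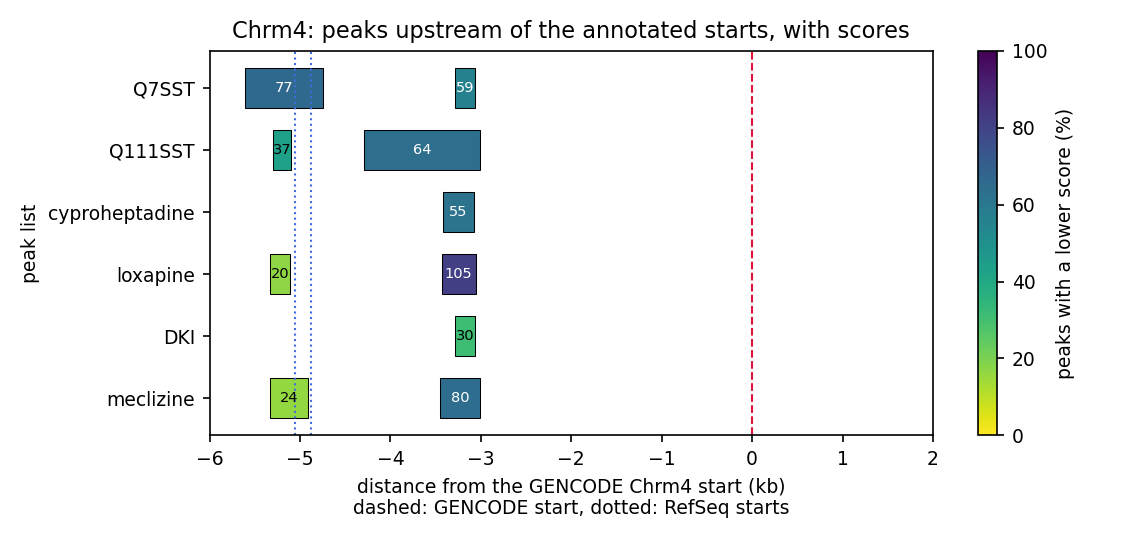
Peaks around Chrm4 in the 6 lists, as distance in kb from its GENCODE start (dashed line), with the RefSeq starts as dotted lines. Bars are peaks with their scores, coloured by strength. The region near -3.65 kb has a peak in all 6 lists, the region at the RefSeq starts in 4, and no peak lies within 1 kb of the GENCODE start.

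Chrm1 and Chrm5 were unmarked in all 6 lists. Chrm1 (ENSMUSG00000032773.9, chr19:8663789-8683587, plus strand), the main muscarinic receptor gene of forebrain neurons, had its nearest peaks 24.3 to 32.7 kb from a start. A region that began nearly 5 kb past its end, chr19:8688350-8689222, had scores of 22 in Q7SST, 48 in Q111SST, 63 with loxapine and 37 with meclizine. It had no peak with cyproheptadine or DKI. Chrm5 (ENSMUSG00000074939.3, chr2:112479171-112480769, minus strand) lay 11.2 to 11.5 kb from the nearest peak, which covered the start of Aven, a gene for an inhibitor of apoptosis, in all 6 lists. Its promoter window had a low ratio of observed to expected CG, 0.265. Hrh4 (ENSMUSG00000037346.5), a receptor gene of blood cells, lay 31.2 to 31.7 kb from its nearest peak, over the start of Impact.

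Set beside all genes, few of the receptor genes were marked. In Q7SST 3 of 9 were marked (33.3%), against 59.9% of all protein-coding genes. In meclizine the count was 2 of 9 (22.2%), against 58.6%. In each of the other 4 lists it was 1 of 9 (11.1%), against 58.4% in Q111SST, 55.4% in cyproheptadine, 58.1% in loxapine and 55.8% in DKI. Of all genes, 53.5% were marked in all 6 lists, the pattern of Hrh1, and 37.0% in none, the pattern of 6 of the 9 receptor genes. The pattern of Chrm3, Q7SST alone, was shared by 610 genes (2.78%), and that of Chrm2, Q7SST and meclizine, by 66 (0.301%).

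The genes most like each marked receptor gene were those with the smallest mean absolute difference in strength over the 6 lists, an unmarked gene counting as 0. For Hrh1 they were Ammecr1 (2.31 points) and Prkar2b (2.77 points), a regulatory subunit of protein kinase A. For Chrm2 they were Rab44 (0.556 points) and Myl2 (0.743 points). Chrm3 tied at 0 points with 13 genes, among them Amhr2 and Cdh9.

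Genes that make, carry and break down histamine were mostly unmarked. Of 9, 2 were marked in Q111SST (22.2%, against 58.4% of all genes). Aldh7a1 was marked in all 6 lists, 6 in none, and Hdc and Slc29a4 in some. Hdc, the enzyme that makes histamine from histidine, was marked in Q111SST (strength 44.6%), cyproheptadine (53.8%), loxapine (54.7%) and meclizine (30.9%) and unmarked in Q7SST and DKI. With starts of protein-coding transcripts only, or with RefSeq starts, Hdc was marked in none of the 6. Slc29a4, a monoamine transporter, was marked in Q7SST alone (8.69%), and in no list when all were of equal size. Hnmt, the main histamine-inactivating enzyme of the brain, was unmarked in all 6.

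Of 8 acetylcholine genes, 5 were marked in Q7SST, where 59.9% of all genes were marked. That count was 3 with peaks over a start (53.0% of all genes) or with lists of equal size (58.1%), and 2 with only peaks scored 47.0, the median pooled over the lists, or higher (53.6%). In Q111SST 2 were marked (25.0%, against 58.4% of all genes), as in cyproheptadine, loxapine and DKI, and in meclizine 3. Slc44a1, a choline transporter, and Bche, butyrylcholinesterase, were marked in all 6 lists, with strengths of 87.4 and 72.6% in Q111SST. With only peaks over a start, Slc44a1 was marked in no list. The acetylcholine count was then 1 in Q111SST, cyproheptadine, loxapine and DKI and 2 in meclizine (45.4 to 53.0% of all genes). Slc5a7, the high-affinity choline transporter of cholinergic neurons, was marked in Q7SST (17.7%) and meclizine (24.1%), and in meclizine alone with lists of equal size. Ache, acetylcholinesterase (6.97%), and Prima1, its membrane anchor (26.1%), were marked in Q7SST alone. With a window of 5 kb Ache was marked in all 6 lists, and with lists of equal size in none. Chat, the enzyme that makes acetylcholine, was unmarked in all 6.

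The genes downstream of the receptors are set beside the 58.4% of all genes marked in Q111SST and the 53.5% marked in all 6 lists. Of 11 G protein alpha subunit genes, 9 were marked in Q111SST (81.8%), the same 9 in all 6 lists, and Gna15 in none. In Q111SST the strongest was Gna11 (98.6%), followed by Gnaq (93.1%), both subunits of the Gq class. Gnal, the Gs-like subunit of striatal neurons, was marked in Q7SST (42.9%) and meclizine (36.4%). Of 10 receptor kinase, arrestin and RGS genes, 9 (90.0%) were marked in all 6 lists and Grk3 in none.

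Of 7 phospholipase C beta and IP3 receptor genes, 5 had a mark in Q111SST (71.4%), and 4 of them in all 6 lists, among them Itpr1 (94.2% in Q111SST) and Plcb3 (91.7%). Plcb1 was marked in Q7SST (27.6%), Q111SST (15.9%), loxapine (7.53%) and meclizine (14.8%), and Plcb4 in Q7SST alone (55.7%). With lists of equal size Plcb1 was marked in Q7SST alone. Of 9 adenylyl cyclase genes, 5 were marked in Q111SST (55.6%), near the share of all genes, and Adcy6, Adcy7, Adcy8 and Adcy9 in all 6 lists. With only peaks scored 47.0 or higher, 1 of the 9 was marked in Q111SST and 0 in DKI, against 52.1 and 46.6% of all genes. Adcy3 was marked in Q111SST (36.1%), loxapine (15.0%, not with lists of equal size) and meclizine (24.1%). Adcy5, the main striatal adenylyl cyclase gene, was unmarked in all 6.

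Other receptor families for small transmitters were set beside these genes. Of 16 nicotinic receptor subunit genes, Chrnb1, a muscle-type subunit, was marked in all 6 lists and 12 in none, where 53.5 and 37.0% of all genes stood. Chrna5 was marked in every list but cyproheptadine (55.9% in Q111SST), Chrna7 in Q7SST alone (17.7%) and Chrna9 in Q111SST alone (17.7%). The last 2 calls ended with lists of equal size, and with RefSeq starts Chrna9 was marked in Q7SST too. A window of 5 kb raised the nicotinic count from 3 to 7 in Q7SST and from 3 to 6 in Q111SST, and marked Chrna9 in all 6 lists. That window marked 60.2 to 64.8% of all genes. Of 5 dopamine receptor genes, Drd4 was marked in Q7SST alone (6.97%), though not with lists of equal size, and the other 4 in no list. Of 12 serotonin receptor genes, 5 were marked in Q7SST, 3 in loxapine and in meclizine, 2 in Q111SST, 1 in cyproheptadine and 0 in DKI, against 55.4 to 59.9% of all genes. With lists of equal size, 3 of the 12 were marked in Q7SST, 1 in cyproheptadine and in meclizine and 0 in the other lists. Between 54.8 and 58.1% of all genes were then marked. The 5 marked in the whole Q7SST list were Htr1b, Htr1d, Htr2a, Htr5b and Htr7, with strengths in Q7SST from 16.0% (Htr1d) to 74.7% (Htr2a). Of 9 adrenergic receptor genes, 5 were marked in all 6 lists, near the 53.5% of all genes, and 6 in Q111SST (66.7%, against 58.4%). With only peaks scored 47.0 or higher, 3 of the 9 were marked in Q111SST and 0 in cyproheptadine, against 52.1 and 46.6% of all genes. With peaks over a start the count was 2 in cyproheptadine, loxapine and DKI, 4 in meclizine, 5 in Q111SST and 7 in Q7SST (45.4 to 53.0% of all genes). With lists of equal size it was 3 in loxapine, 4 in cyproheptadine, 5 in Q111SST and meclizine, 6 in DKI and 7 in Q7SST. Adrb1, with a strength of 68.7% in Q111SST, had the highest value of that family there. Adra2b was marked in every list but cyproheptadine (52.9% in Q7SST; only in Q7SST and DKI with lists of equal size) and Adra1d in Q7SST alone (21.3%). No test was made between families.

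**Figure D5:**
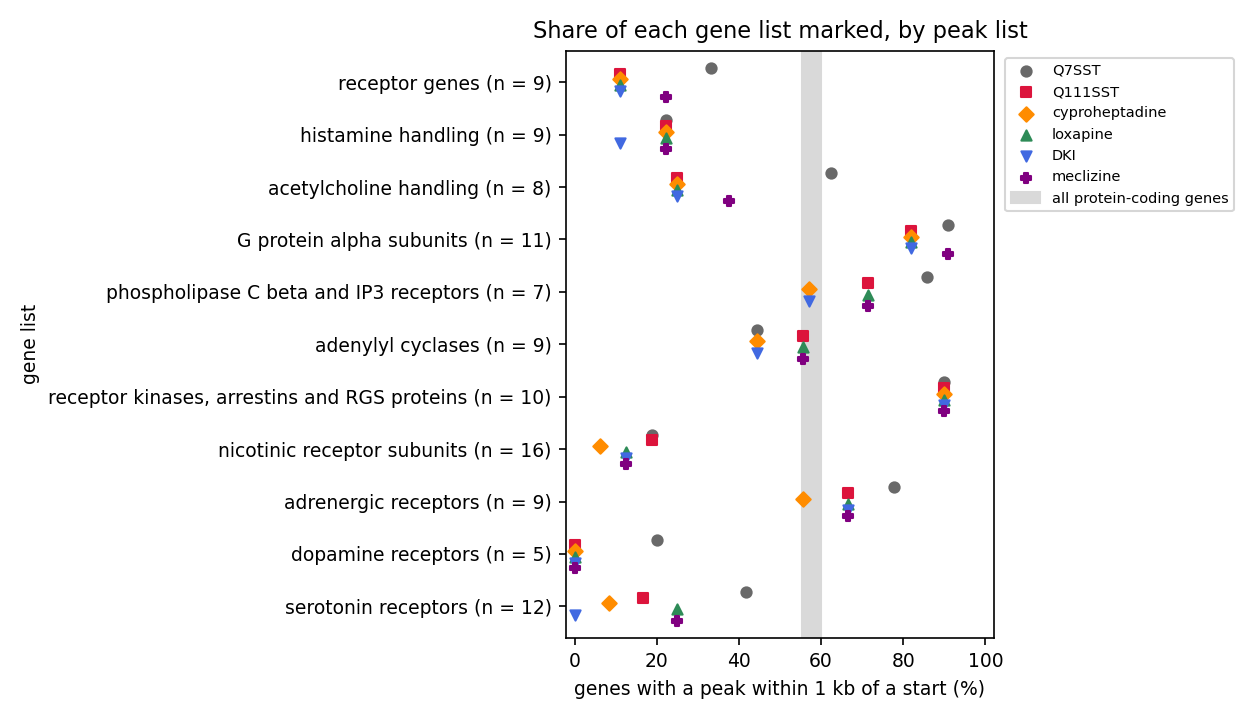
Percent of the genes of each list (rows, with the number of genes) that had a peak within 1 kb of a start, for each peak list (symbols). The grey band runs from 55.4 to 59.9%, the shares of all protein-coding genes marked. The receptor genes lie at 11.1 to 33.3%, below the band in all 6 lists, as do the nicotinic, dopamine and serotonin receptor genes.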

How the data were processed

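H3K4me3 peaks were called by the authors, per the labels and the submitters' processing notes, which name Trimmomatic 0.36, Bowtie2, SAMtools 1.3, MACS2 and mm10. Deposited lines held a peak's position and a whole-number score, whose scale, threshold and input control were not given in the sources used here. Cells were treated in triplicate per the series' design, but pooling of replicates is not stated. No condition had a second list, so no replicate spread was available, and depth is unknown. Intervals cover counting error only.

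Of 21 chromosomes, 0 had a peak beyond its GRCm38 end. Coordinates are counted from 1. GENCODE vM21 starts were used, symbols were counted once and mitochondrial genes left out. Strength used the highest-scoring peak within 1 kb of any start. Promoter sequence came from the RefSeq table (GRCm38.p6), and printed stretches leave out annotated exons. The motif counts in the closing section searched both strands.

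All 9 receptor genes are named. Of each gene list, those marked in some lists and up to 4 of the strongest in Q111SST could be named, with the 2 genes most like each marked receptor gene and the gene nearest to a peak. Unmarked genes named for their role (Chat, Hnmt, Adcy5, Drd1, Drd2, Gna15, Grk3) were chosen after their values were seen. Members and lists were chosen with earlier results of these data known.

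Alternatives were a peak over a start, a window of 5 kb, lists of equal size (30758 peaks), a pooled median score of 47.0 as threshold, protein-coding transcripts only, ranks among promoters marked in all 6 lists, merged peaks, and leaving out peaks nearer to another gene. RefSeq starts, also with equal sizes, were added after seeing the data. The script was tested on simulated data. It ran in Python 3.11.15 with pandas 2.3.3, numpy 2.4.6, matplotlib 3.10.9 and scipy 1.17.1.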

Additional observations from a re-analysis of the deposited data

How the results depend on the processing

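No paired analysis was possible because only 1 list a condition was analysed. Counting only peaks over a start left 0 receptor genes marked in cyproheptadine, loxapine and DKI, where Hrh1 then counted as lost (1 in each), and 1 in meclizine, with 0 gained. A window of 5 kb gave 2 marked in Q111SST, cyproheptadine and loxapine and 3 in DKI, with 1 gained in DKI and 1 shifted in loxapine and in DKI. Lists of equal size and the stricter score threshold each gave 1 marked in Q7SST and in meclizine, 0 gained in both, and 1 shifted in cyproheptadine and in DKI, and so did ranks among promoters marked in all 6 lists for these shifts (1 each). Leaving out peaks nearer to another gene gave 1 marked in meclizine. RefSeq starts gave 2 marked in Q111SST and loxapine, 1 lost in cyproheptadine and DKI (Chrm4) and 1 shifted in loxapine and meclizine. RefSeq starts with equal sizes gave 2 marked in Q111SST, 1 in meclizine, 0 gained in Q7SST and meclizine, 1 lost in each of the 4 treated lists and 1 shifted in cyproheptadine and DKI. Hrh1 strength ran from 67.0 to 93.3% as reported, from 58.8 to 92.6% in lists of equal size and from 18.4 to 82.3% among promoters marked in all 6 lists. Of 53 strength values of receptor genes under these alternatives, 20 moved beyond counting error. The other 33 were identical to the reported values, because those settings kept the same peak and the same list, so they are no check. All 9 widths compared were called the same. Over all genes, the shares called lost ran from 2.58 to 12.6% with peaks over a start, 1.35 to 5.78% with RefSeq starts and 1.36 to 3.57% with RefSeq starts and equal sizes. Shares gained ran from 0.735 to 8.63% with peaks over a start, 1.11 to 10.5% with the 5 kb window, 0.985 to 8.25% with equal sizes, 0.639 to 7.41% at the stricter threshold and 0.962 to 8.11% with RefSeq starts and equal sizes. Shares shifted ran from 14.9 to 42.1% with the 5 kb window, 18.1 to 33.2% with equal sizes, 29.2 to 57.9% at the stricter threshold, 14.4 to 42.9% with RefSeq starts, 18.2 to 33.3% with RefSeq starts and equal sizes, and 30.9 to 47.0% among promoters marked in all 6 lists. Between 45.4 and 53.0% of all genes were marked with peaks over a start, and 60.2 to 64.8% with the 5 kb window. The shares were 54.8 to 58.1% with equal sizes and 46.6 to 53.6% at the stricter threshold. They were 55.0 to 59.4% with RefSeq starts and 54.5 to 57.7% with RefSeq starts and equal sizes. The causes were not tested. With unknown depth, a peak missing from a shorter list cannot be told apart from one too weak to be called there.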

Other observations

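The promoter windows of the receptor genes were searched for 3 core promoter motifs on both strands. GGGCGG, the GC box bound by Sp1-family factors, was in the windows of Chrm2, Chrm4, Hrh2, Hrh3 and the first 2 starts of Hrh1, and in 47.8% of all promoters. CCAAT, the element bound by NF-Y, was in those of Chrm2, Chrm4 and Hrh3, and in 37.8% of all promoters. TATAAA was in none of them, and in 12.1% of all promoters. The window of the Hrh1 internal start, with a peak within 1 kb in all 6 lists, held none of the 3. Only the Q111SST peak overlapped that window. A match is a description of letters and was not tested as a binding site.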
